A study of Mus musculus with 18 samples.

Results

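The 8 genes described here, *Elane*, *Prtn3*, *Ctsg*, *Mpo*, *Ms4a3*, *Fcnb*, *Gfi1* and *Cebpe*, encode proteins of the neutrophil primary granule, markers of its progenitors and regulators of their differentiation. They were chosen by gene symbol from the 62197 rows of the normalized count table. *Elane* and *Ms4a3* were already known from the same libraries for a confinement response that differed between genotypes, so that difference is given below as a description without a test. Each symbol matched 1 row, and all 8 genes were among the 17875 tested, which reached 10 normalized counts in 3 or more libraries.

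RNA-seq was performed on mouse bone marrow-derived dendritic cells (DCs), which were grown for 10 days with GM-CSF supernatant. The 18 libraries fell into 6 conditions of 3 libraries. The study asked how confinement, through cytosolic phospholipase A2 (cPLA_2_, encoded by *Pla2g4a*), alters the DC transcriptome, with lipopolysaccharide (LPS) as the microbial stimulus. Normalized counts are read counts divided by the size factor of the library, and the whole reads recovered from them ranged from 33027230 to 61300021 per library, with a median of 40950398. Nonconfined cPLA_2_ WT and cPLA_2_ KO DCs were immature cells collected directly when the culture ended. Confined cPLA_2_ WT and cPLA_2_ KO DCs were held at a height of 3 µm and were lysed 4 h after confinement. LPS-treated DCs of both genotype labels were exposed to LPS at 100 ng/ml, for 30 min in the labels but 25 min in the methods of the paper, were washed and were collected the next day. The treatment text in the labels names LPS for all 18 samples, and the sample titles were followed instead. The knockout was conditional, with deletion driven by *Itgax*-cre. Time since the end of culture differed between the treatments, and cannot be told apart from them.

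Primary, or azurophilic, granules are built at the promyelocyte stage of neutrophil development, when transcription of the serine proteases and myeloperoxidase peaks before being shut off. The transcription factors GFI1 and C/EBPε act around this stage, and mature neutrophils carry the granule proteins with little of their mRNA. GM-CSF cultures of bone marrow pass through myeloid progenitors, and granulocytes form in them beside DCs. According to the methods, these nonadherent granulocytes were removed during differentiation and the semiadherent fraction was kept. In bulk RNA, fewer cells of a type and less RNA per cell cannot be told apart.

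The targeted gene was examined first. *Pla2g4a* was at 697.2, 685.6 and 770.4 normalized counts in nonconfined cPLA_2_ WT DCs and at 547.7, 541.8 and 532.8 in nonconfined cPLA_2_ KO DCs. After confinement it was at 1369, 1430 and 1321 in cPLA_2_ WT DCs and at 922.6, 871.2 and 919.5 in cPLA_2_ KO DCs. The LPS libraries labelled WT had 1005, 969.3 and 967.3, and those labelled KO had 1065, 1032 and 1028. Thus *Pla2g4a* was lower in every knockout library of the nonconfined and confined conditions, but higher in every LPS library labelled KO than in any labelled WT. These are counts over the whole gene, and which exons were deleted is not given in the sources used here.

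The Y-linked gene *Ddx3y* also went against the LPS labels. It did not exceed 3.048 normalized counts in the nonconfined and confined cPLA_2_ WT libraries and lay between 874.4 and 1036 in the corresponding cPLA_2_ KO libraries, so genotype and this Y-linked difference cannot be told apart. Among the LPS libraries it was at 1271, 0 and 662.2 in replicates 1, 2 and 3 labelled WT, and at 2.121, 1476 and 783.4 in those labelled KO. *Xist*, the X-inactivation transcript of female cells, was present in every library, at 12150 to 24830 in the nonconfined and confined cPLA_2_ KO libraries and 22730 to 33680 in the cPLA_2_ WT ones, so no single sex can be read from the libraries with *Ddx3y*. LPS WT replicate 2 and LPS KO replicate 1, the libraries without *Ddx3y*, differed from each other by 3.24 times the sampling noise of their counts, LPS WT replicate 3 and LPS KO replicate 3 by 3.13 times, and LPS WT replicate 1 and LPS KO replicate 2 by 4.18 times. Libraries of the same LPS label differed by 4.1 to 8.52 times that noise. Replicates of a nonconfined or confined condition differed by 2.76 to 7.4 times, so these pairs across the labels were no further apart than replicates of other conditions. The LPS conditions are called by their labels, both labels are averaged in tests of LPS, and values without the libraries in doubt are given beside these tests.

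The serine proteases of the primary granule come first. *Elane* encodes neutrophil elastase. It was at 1026, 874 and 1002 normalized counts in nonconfined cPLA_2_ WT DCs and at 141.1, 115.8 and 141 in confined cPLA_2_ WT DCs. In cPLA_2_ KO DCs it was at 868.9, 808.9 and 864.7 without confinement and at 503.9, 446.8 and 467.5 with it. The 3 confined cPLA_2_ WT libraries held the lowest values of all 18, without overlap with any other condition. The LPS libraries labelled WT had 398.2, 837.5 and 533.5 and those labelled KO had 779.6, 390.2 and 616.9. The highest LPS value under each label came from the library that lacked *Ddx3y*, and the LPS range overlapped with confined and nonconfined cPLA_2_ KO DCs.

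*Prtn3* encodes proteinase 3, a granule protease whose gene lies beside *Elane*. It was at 1478, 1406 and 1321 normalized counts in nonconfined and at 399.1, 353.3 and 350.6 in confined cPLA_2_ WT DCs. The cPLA_2_ KO values were 1214, 1056 and 1246 without and 892.4, 831.7 and 855.7 with confinement. Confinement thus separated the libraries of each genotype, with the wider gap in cPLA_2_ WT DCs. LPS libraries had 634, 1301 and 863.7 under the WT label and 1205, 703.7 and 880.9 under the KO label. These ranged from below the confined to above the nonconfined cPLA_2_ KO libraries, stayed under every nonconfined cPLA_2_ WT library, and were again highest in the pair without *Ddx3y*.

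*Ctsg* encodes cathepsin G, a chymotrypsin-like protease of the same granules. Nonconfined cPLA_2_ WT DCs had 682.7, 708.6 and 745.9 normalized counts and confined cPLA_2_ WT DCs had 198.1, 162.1 and 187.2. Nonconfined cPLA_2_ KO DCs had 920.6, 843.4 and 898.7, and confined cPLA_2_ KO DCs had 470.5, 424.4 and 489.4. Here nonconfined cPLA_2_ KO rather than cPLA_2_ WT libraries were the highest. The LPS values were 508, 641.6 and 542.9 for the WT label and 659.8, 518.3 and 540.4 for the KO label. They lay between the confined cPLA_2_ KO and the nonconfined cPLA_2_ WT libraries and overlapped with neither.

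*Mpo* encodes myeloperoxidase, the heme enzyme of primary granules that forms hypochlorous acid. It was at 2451, 2274 and 2334 normalized counts in nonconfined and at 327.6, 320.7 and 341.1 in confined cPLA_2_ WT DCs. Among cPLA_2_ KO libraries the nonconfined ones had 2749, 2832 and 2824 and the confined ones 1157, 1016 and 1160. The 4 conditions were fully separated, and confined cPLA_2_ WT DCs were again lowest. LPS libraries had 1094, 1645 and 1221 under the WT label and 1622, 960 and 1323 under the KO label. They overlapped with confined cPLA_2_ KO DCs and stayed below every nonconfined library.

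*Ms4a3* encodes a 4-transmembrane protein that marks granulocyte and monocyte progenitors. It was at 1231, 1199 and 1163 normalized counts in nonconfined and at 224.2, 185.2 and 141 in confined cPLA_2_ WT DCs. In cPLA_2_ KO DCs it was at 1180, 1008 and 1125 without and at 605.3, 609.9 and 694.4 with confinement. Nonconfined libraries of the genotypes overlapped, whereas confined ones did not. The LPS libraries had 693.7, 971.2 and 762 under the WT label and 965.3, 591.6 and 752.6 under the KO label. All LPS values were below the nonconfined ones, and they overlapped with confined cPLA_2_ KO DCs.

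*Fcnb* encodes ficolin B, a lectin that recognizes microbial sugars and is made by myeloid cells of the bone marrow. It was at 661.4, 735.9 and 664.3 normalized counts in nonconfined and at 364.3, 301.8 and 315.1 in confined cPLA_2_ WT DCs. Nonconfined cPLA_2_ KO DCs had 675.4, 620 and 641.5, and their confined counterparts 785.5, 727.2 and 695.3. It was the member whose confined libraries lay below the nonconfined ones in cPLA_2_ WT DCs and above them in cPLA_2_ KO DCs. LPS libraries had 587.9, 732.3 and 631.5 under the WT label and 746.7, 595 and 657.6 under the KO label, which overlapped with every condition except confined cPLA_2_ WT DCs.

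The transcriptional regulators come last. *Gfi1* encodes a zinc finger repressor required for neutrophil differentiation. It was at 176.8, 178.2 and 169 normalized counts in nonconfined and at 129.5, 104.6 and 93.6 in confined cPLA_2_ WT DCs. In cPLA_2_ KO DCs it was at 230.4, 212.2 and 188.3 without and at 144.6, 168.5 and 137.6 with confinement. LPS libraries had 399, 495.2 and 462.6 under the WT label and 417.9, 419.9 and 405.9 under the KO label. All 6 LPS libraries lay above all others, and for this gene the pair without *Ddx3y* did not hold the highest values under both labels.

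*Cebpe* encodes C/EBPε, which drives the later steps of granulocyte maturation and the genes of secondary granules. It was at 1818, 1816 and 1683 normalized counts in nonconfined and at 933.4, 938.1 and 958.3 in confined cPLA_2_ WT DCs. In cPLA_2_ KO DCs it was at 2457, 2150 and 2314 without and at 1583, 1489 and 1473 with confinement. The confined cPLA_2_ WT libraries were lowest and the nonconfined cPLA_2_ KO libraries highest. LPS libraries had 1689, 1624 and 1769 under the WT label and 1810, 1505 and 1675 under the KO label, and overlapped with nonconfined cPLA_2_ WT and confined cPLA_2_ KO DCs.

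**Figure D1:**
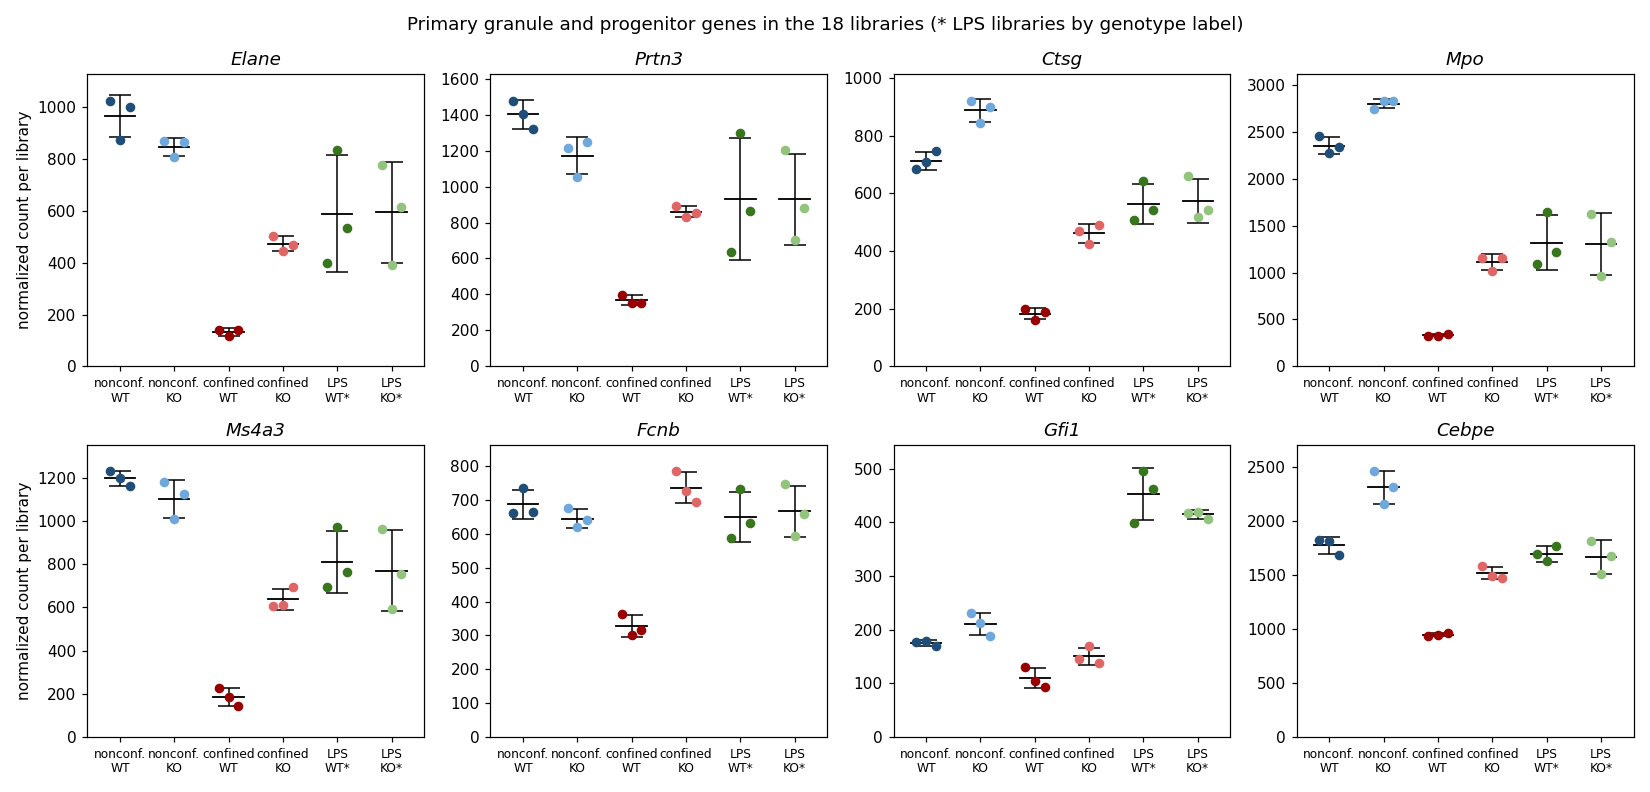
Normalized counts (vertical axes, linear, from 0) of the 8 genes in each library (points), with the mean (bar) and SD (whiskers) of the 3 libraries of each condition along the horizontal axes; asterisks mark LPS libraries named by their genotype label. Confined cPLA_2_ WT libraries are the lowest for each gene, at a mean of 132.6 for *Elane*, and LPS libraries stand above the rest for *Gfi1*.

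The order of condition means was read against this spread. *Elane* averaged 967.6 ± 81.9 (SD, n = 3) in nonconfined cPLA_2_ WT and 847.5 ± 33.5 in nonconfined cPLA_2_ KO DCs, 595.6 ± 196 under the LPS KO label, 589.7 ± 225 under the LPS WT label, 472.7 ± 28.9 in confined cPLA_2_ KO and 132.6 ± 14.6 in confined cPLA_2_ WT DCs. The middle positions, held by the LPS labels, did not differ beyond their spread from each other or from confined cPLA_2_ KO DCs. *Fcnb* was ordered differently, with 736 ± 45.7 in confined cPLA_2_ KO, 687.2 ± 42.2 in nonconfined cPLA_2_ WT and 327.1 ± 32.9 in confined cPLA_2_ WT DCs. Its 5 higher conditions formed a run of overlapping neighbours, and the gap to confined cPLA_2_ WT DCs was the only one wider than the spread. *Gfi1* averaged 452.3 ± 48.9 under the LPS WT label and 414.6 ± 7.58 under the LPS KO label, against 210.3 ± 21.1 in nonconfined cPLA_2_ KO and 174.7 ± 4.95 in nonconfined cPLA_2_ WT DCs. *Cebpe* averaged 2307 ± 154 in nonconfined cPLA_2_ KO and 943.3 ± 13.2 in confined cPLA_2_ WT DCs.

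Levels of different genes were compared per kilobase of annotated exon. *Cebpe* was the most abundant of the 8 genes in every condition, with 1430 ± 62.3 (SD, n = 3) normalized counts per kilobase in nonconfined and 760 ± 10.6 in confined cPLA_2_ WT DCs. *Gfi1* was the least abundant in every condition, with 54.8 ± 1.55 per kilobase in nonconfined cPLA_2_ WT DCs and 142 ± 15.4 under the LPS WT label. *Elane*, at 981 ± 83.1 per kilobase, was next to *Cebpe* in nonconfined cPLA_2_ WT DCs, ahead of *Prtn3* at 809 ± 45.5, *Ctsg* at 690 ± 30.7, *Mpo* at 687 ± 26.2 and *Ms4a3* at 630 ± 17.7. The annotated span of *Prtn3* begins at 79710310, before its counted row at 79714560, so its length may be too long and its value per kilobase too low. By counts alone *Prtn3*, at a mean of 1402, lay above *Elane*, at 967.6. In confined cPLA_2_ WT DCs *Fcnb* took that position at 229 ± 23 per kilobase, and *Elane* stood at 134 ± 14.8. Among the granule genes, the ratio of *Elane* to *Prtn3* counts also moved, from a mean of 0.692 (range 0.622 to 0.759) in nonconfined to 0.361 (0.328 to 0.402) in confined cPLA_2_ WT DCs and from 0.725 to 0.549 in cPLA_2_ KO DCs. The ratio of *Mpo* to *Elane* counts averaged 2.44 and 2.5 before and after confinement in cPLA_2_ WT DCs, and 3.31 (range 3.16 to 3.5) and 2.35 (2.27 to 2.48) in cPLA_2_ KO DCs.

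Differences were then tested with limma on log2(normalized count + 1), a scale that slightly understates changes of low genes. Genes past an adjusted p (Benjamini-Hochberg) of 0.05 are said to rise or fall, and those that also changed by more than 1 on the log2 scale are said to be called. An averaged comparison is the mean of the log2 differences within its genotypes or conditions, which is not the log2 ratio of pooled means. The paper calls the samples biological replicates, and its reporting summary speaks of biologically independent replicates for its statistics in general, but neither the paper nor the labels say whether these libraries came from separate animals or cultures, so the p-values measure only the spread between these samples, which may be technical.

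Averaged over the genotypes, all 8 genes were lower after confinement. *Mpo* fell by 2.08 ± 0.10 (SE) on the log2 scale (limma adjusted p = 6.26e-14), *Ctsg* fell by 1.45 ± 0.07 (2.39e-13) and *Prtn3* fell by 1.19 ± 0.13 (5.75e-08), which made these 3 genes called. *Cebpe* fell by 0.76 ± 0.05 (limma adjusted p = 6.62e-12), *Gfi1* fell by 0.58 ± 0.09 (8.3e-06) and *Fcnb* fell by 0.44 ± 0.07 (9.14e-06) without being called. The confined and nonconfined libraries of *Fcnb* overlapped. Those of *Gfi1* were parted only by 168.5 normalized counts in the highest confined library against 169 in the lowest nonconfined one. *Elane* had a log2 fold change of -1.85 ± 0.15, and *Ms4a3* had -1.76 ± 0.11. These values are description only, here and in the other comparisons that include confined DCs, since the low confined cPLA_2_ WT levels for which these genes were known carry them. Of the other 6 genes, 3 were called lower, against 6.25% of all genes, and 6 were lower at the adjusted p alone, against 31%. The 3 called genes varied closely with *Elane* and *Ms4a3* across these libraries (Pearson's r of 0.97 to 0.99). Counts over the 6 genes in comparisons with confined DCs are thus not independent of what was already known.

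On these averages LPS had a smaller effect than confinement on the granule genes and the opposite effect on *Gfi1*. In cPLA_2_ KO DCs alone the confinement changes of the proteases were smaller than on average, at -0.84 for *Elane* and -0.44 for *Prtn3*. *Gfi1* rose from a mean of 192.5 to 433.4 (log2 fold change 1.17 ± 0.09, limma adjusted p = 1.21e-10) and was the single gene of the 8 called higher, against 15.6% of all genes tested. *Mpo* fell by 1.00 ± 0.10 (limma adjusted p = 6.28e-09), just inside the limit of 1, *Elane* fell by 0.67 ± 0.15 (0.000353) and *Ms4a3* fell by 0.56 ± 0.11 (0.000111). *Prtn3* fell by 0.51 ± 0.13 (limma adjusted p = 0.00133), *Ctsg* fell by 0.49 ± 0.07 (3.79e-06) and *Cebpe* fell by 0.27 ± 0.05 (2.31e-05). *Fcnb* had a log2 fold change of -0.02 ± 0.07 (limma adjusted p = 0.79). Thus 1 gene rose and 6 fell at the adjusted p alone, against 37.2% and 34.3% of all genes. By limma 0 of the 8 were called lower, against 13.4% of all genes, while 6 were lower at an unadjusted p under 0.05, which 73.2% of all genes reached in either direction, edgeR called 1 lower and DESeq2 called 0.

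The libraries in doubt bore on these LPS values. Without the LPS libraries that lacked *Ddx3y*, *Mpo* was called lower at -1.17 and *Elane* was at -0.93. Without the 4 that had *Ddx3y*, which left 1 LPS library per label, *Elane* was at -0.16, *Prtn3* at -0.03 and *Ms4a3* at -0.25, and these 3 no longer passed the test, while *Fcnb* was at 0.15. *Gfi1* was at 1.13 and 1.25 in these fits, which were chosen after seeing the data. When every library was instead scaled to the same total, the median of all genes moved to -0.47 for LPS. *Gfi1* was at 0.68 and no longer called, and *Fcnb* fell by 0.52. Then 4 of the 8 genes were called, all of them lower, against 25.9% of all genes called lower in that fit. They were *Mpo* at -1.49, *Elane* at -1.17, *Ms4a3* at -1.06 and *Prtn3* at -1, while *Ctsg* was at -0.99 and *Cebpe* at -0.77.

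Confined DCs were set directly against LPS-treated DCs. *Gfi1* had the widest difference, with a mean of 129.7 in confined and 433.4 in LPS libraries (log2 fold change -1.76 ± 0.09, limma adjusted p = 2.08e-13). *Mpo* was lower in confined DCs by -1.09 ± 0.10 on the log2 scale (limma adjusted p = 2.53e-09). *Ctsg* differed by -0.96 ± 0.07, *Prtn3* by -0.68 ± 0.13, *Cebpe* by -0.49 ± 0.05 and *Fcnb* by -0.42 ± 0.07. So 2 of these 6 genes were called lower, against 10.6% of all genes, and 6 were lower at the adjusted p alone, against 33.7%. *Ms4a3* differed by -1.20 ± 0.11 and *Elane* by -1.18 ± 0.15, again as description. Without the LPS libraries that lacked *Ddx3y*, *Elane* was at -0.93 and *Mpo* at -0.91, and 1 of the 6 genes was called lower, against 10.4% of all genes in that fit. Without those that had it, 4 of the 6 were called lower, against 9.36%, with *Gfi1* at -1.83, *Mpo* at -1.43, *Ctsg* at -1.17 and *Prtn3* at -1.15, while *Elane* was at -1.69 and *Ms4a3* at -1.51. With the same total in every library, which moved the median of all genes to 0.37, only *Gfi1* was called lower among the 6, at -1.39, against 7.25% of all genes, and *Fcnb*, at -0.05, no longer passed the test. This comparison and both comparisons against nonconfined DCs share libraries, so their values are not independent of each other.

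Averaged over nonconfined and confined DCs, all 8 genes were higher in cPLA_2_ KO DCs. *Mpo* differed most (log2 fold change 1.00 ± 0.10, limma adjusted p = 4.22e-08). *Ctsg* rose by 0.83 ± 0.07 (limma adjusted p = 1.07e-08). *Fcnb* rose by 0.54 ± 0.07 (limma adjusted p = 2.1e-06), *Cebpe* by 0.53 ± 0.05 (8.64e-09), *Prtn3* by 0.48 ± 0.13 (0.00562) and *Gfi1* by 0.36 ± 0.09 (0.00331). *Ms4a3* differed by 0.85 ± 0.11 and *Elane* by 0.82 ± 0.15, as description only. The other 6 genes were all higher at the adjusted p alone, against 14.7% of all genes. By limma 0 of these 6 were called, against 1.5% of all genes called higher, whereas 6 had an unadjusted p under 0.05, against 41% of all genes in either direction, and edgeR and DESeq2 each called 0. *Mpo* lay at the limit and was called in some of the other fits, among them the one with a pseudocount of 0.5, the one with the same total in every library, at 1.06, and the one without confined cPLA_2_ KO replicate 2, at 1.03. *Ddx3y* differed between the same libraries, and the part of sex in this result was not tested. Of the 9 eosinophil genes described below, 7 were called higher in this comparison, against 1.5% of all genes, and their part was not tested.

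These averages join unequal differences. In nonconfined DCs the log2 differences of cPLA_2_ KO from cPLA_2_ WT DCs were -0.26 for *Prtn3*, -0.19 for *Elane*, -0.12 for *Ms4a3* and -0.09 for *Fcnb*, and 0.25 for *Mpo*, 0.26 for *Gfi1*, 0.32 for *Ctsg* and 0.38 for *Cebpe*. In confined DCs they ranged from 0.46 for *Gfi1* and 0.68 for *Cebpe* to 1.75 for *Mpo*, 1.81 for *Ms4a3* and 1.83 for *Elane*. As fold changes, confined cPLA_2_ WT DCs held 7.26-fold less *Elane*, 7.11-fold less *Mpo* and 6.61-fold less *Ms4a3* than nonconfined ones. In cPLA_2_ KO DCs the same folds were 1.79, 2.52 and 1.73. *Fcnb* was 2.1-fold lower after confinement in cPLA_2_ WT DCs and 1.14-fold higher in cPLA_2_ KO DCs. The genotype difference of the confinement change, from which *Elane* and *Ms4a3* were known, was 2.02 for *Elane*, 1.93 for *Ms4a3*, 1.49 for *Mpo*, 1.49 for *Prtn3*, 1.26 for *Fcnb* and 1.02 for *Ctsg*, and 0.30 for *Cebpe* and 0.20 for *Gfi1*, on the log2 scale.

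In LPS libraries as labelled, 0 of the 8 genes were called by limma, and their log2 differences lay between -0.12 for *Gfi1* and 0.03 for *Elane* and *Fcnb* (limma adjusted p = 1 for each). Of all 17875 genes, 0% were called higher and 0% lower, 890 had an unadjusted p under 0.05, or 4.98%, and edgeR and DESeq2 each called 0, with 812 and 831 genes at an unadjusted p under 0.05. None of the 8 genes reached an unadjusted p of 0.05 by any of these tools. *Pla2g4a* and *Ddx3y* do not follow the labels in these libraries, so no genotype effect under LPS can be read from them.

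**Figure D2:**
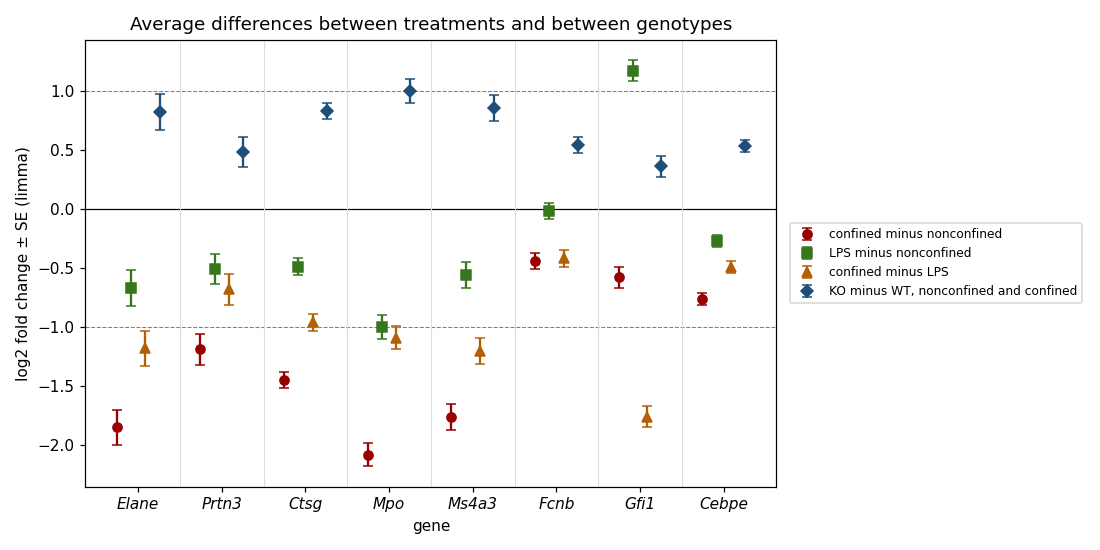
Log2 fold change (vertical axis) from the limma fit, with its SE (whiskers), of each gene (horizontal axis) for 4 average comparisons; dashed lines mark changes of 1 and -1. The protease genes, *Mpo* and *Ms4a3* are lower after confinement by 1.19 or more, and *Gfi1* stands alone above 1 after LPS.

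Across the 18 libraries, *Elane*, *Prtn3*, *Ctsg*, *Mpo* and *Ms4a3* varied together, with Pearson's r of 0.93 to 0.99 between any pair on the log2 scale. *Cebpe* followed them at 0.86 to 0.97, *Fcnb* at 0.82 to 0.89 and *Gfi1* at 0.38 to 0.51. The libraries of a condition share their treatment, so these values describe the conditions more than 18 independent samples. Outside the 8 genes, the 10 with the highest correlation with their mean standardized profile, among 11429 genes averaging 50 or more normalized counts, were *Ap5b1* (0.967), *Hnrnpf* (0.952), *Agpat2* (0.943), *Ms4a2* (0.938), *Arglu1* (0.936), *Cstdc5* (0.936), *Mrto4* (0.933), *Clec12a* (0.933), *Prss34* (0.933) and *Inpp4b* (0.93). The median over these candidates was 0.068. *Ms4a2*, the β-subunit of the high-affinity IgE receptor, averaged 418 and 90.8 normalized counts in nonconfined and confined cPLA_2_ WT DCs and 628 and 231 in cPLA_2_ KO DCs. *Prss34*, a basophil and mast cell protease, averaged 2880 and 868 in cPLA_2_ WT DCs and 4170 and 1990 in cPLA_2_ KO DCs.

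The 8 genes occupy 6 chromosomes of the mouse genome (mm39), and their rows overlapped with the GENCODE genes of the same name. *Prtn3* (GSMG0004031, chr10:79714560-79719004, 5 exons) and *Elane* (GSMG0004032, chr10:79722081-79724050, 5 exons) are 3077 bases apart on the plus strand. *Mpo* (GSMG0007963) lies at chr11:87684610-87695237 with 14 exons, and *Ctsg* (GSMG0017264, chr14:56337338-56340031) and *Cebpe* (GSMG0017222, chr14:54947818-54949632) share chromosome 14. *Ms4a3* (GSMG0028191) lies at chr19:11606857-11618216, *Fcnb* (GSMG0031707) at chr2:27966491-27974898 and *Gfi1* (GSMG0042370) at chr5:107864521-107874113. All 8 are protein-coding.

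The nearest tested genes with a symbol were taken by position, up to the second on each side, and those named here were chosen after their values were seen. *Plppr3*, the next gene before *Prtn3*, had a log2 fold change of -1.60 on average with confinement (limma adjusted p = 1.58e-05), at -2.66 in cPLA_2_ WT DCs and -0.55 in cPLA_2_ KO DCs. Its row ends 4092 bases before that of *Prtn3*, but the GENCODE span of *Prtn3* begins at 79710310 and overlaps its end at 79710468, and the strand setting of the counting is not given in the sources used here. *Med16*, the next gene after *Elane*, had -0.14 (limma adjusted p = 0.0102). *Mcpt8*, a basophil protease gene 14608 bases from *Ctsg*, fell by 1.36 (limma adjusted p = 4.5e-14) and *Ms4a2*, 5773 bases from *Ms4a3*, fell by 1.82 (1.6e-13). Near *Mpo*, *Tspoap1* rose by 0.20 with confinement (limma adjusted p = 0.00173), *Mks1* had -0.22 (0.142) and *Epx*, the eosinophil peroxidase gene beyond it and 59587 bases away, fell by 2.60 (9.93e-14). *Slc7a8*, 10040 bases from *Cebpe*, rose by 1.09 (limma adjusted p = 1.53e-13). The nearest genes on the other sides did not pass the test. They were *Gzmc* beside *Ctsg* with -0.16 (limma adjusted p = 0.818), *Oosp1* beside *Ms4a3* with -1.17 (0.0563) and *1700123O20Rik* beside *Cebpe* with 0.07 (0.167). The nearest genes on the sides of *Fcnb* were *Col5a1* with 0.18 (limma adjusted p = 0.147) and *Olfm1*, which fell by 0.68 (7.82e-08), and those of *Gfi1* were *Rpap2* with 0.04 (0.655) and *Evi5*, which rose by 0.22 (0.0253).

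The 250 bases before the start of the GENCODE canonical transcript are shown for *Elane*, *Ctsg* and *Mpo* (GRCm39, 5′ to 3′ on the strand of the gene: plus for *Elane*, chr10:79721831-79722080, and *Mpo*, chr11:87684157-87684406, and minus for *Ctsg*, chr14:56340032-56340281). *Prtn3* and *Ms4a3*, which varied together with these genes, are not shown. Capitals mark GAGGAA, a core of PU.1 sites, and TGTGGT or TGCGGT, cores of RUNX sites, on either strand.
Elane: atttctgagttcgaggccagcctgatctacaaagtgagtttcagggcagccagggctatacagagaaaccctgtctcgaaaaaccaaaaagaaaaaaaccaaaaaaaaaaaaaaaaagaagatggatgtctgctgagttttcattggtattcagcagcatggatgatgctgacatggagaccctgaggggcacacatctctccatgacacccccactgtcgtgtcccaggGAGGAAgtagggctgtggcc
Ctsg: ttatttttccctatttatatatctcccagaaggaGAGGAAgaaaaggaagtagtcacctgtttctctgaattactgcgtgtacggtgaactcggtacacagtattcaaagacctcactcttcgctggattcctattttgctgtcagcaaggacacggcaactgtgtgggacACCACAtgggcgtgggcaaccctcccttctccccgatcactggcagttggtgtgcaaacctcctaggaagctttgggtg
Mpo: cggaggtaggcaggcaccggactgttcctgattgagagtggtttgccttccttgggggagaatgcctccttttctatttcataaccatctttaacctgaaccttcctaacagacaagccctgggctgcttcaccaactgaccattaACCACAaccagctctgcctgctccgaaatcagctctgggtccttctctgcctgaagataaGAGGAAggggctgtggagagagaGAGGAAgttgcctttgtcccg
GAGGAA stood in the windows of 5 of the 8 genes (*Elane*, *Prtn3*, *Ctsg*, *Mpo* and *Cebpe*) and in 22.9% of the 21751 protein-coding promoters of the same length. The RUNX letters stood in 2 of the 8 (*Ctsg* and *Mpo*) and in 17.8% of promoters. Letters of C/EBP sites, TTGCNNAA or TTGCAAT on either strand, stood in 1 of the 8 (*Fcnb*) and in 11.0%, and those of MYB sites, AACTG or AACGG, in 4 of the 8 and in 48.6%. The windows of *Ms4a3* and *Gfi1* held no match to any of these letters. A match describes the letters in these windows and nothing about binding.

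Other genes linked to primary granules were taken from a list of 21, of which 20 were tested. With confinement on average, 3 were called higher and 2 lower, against 9.53% and 6.25% of all genes, with a median log2 fold change of 0.06. *Prss57*, a serine protease of the same granules, averaged 143.6 ± 16.9 and 28.99 ± 13.1 normalized counts in nonconfined and confined cPLA_2_ WT DCs and 180 ± 6.65 and 89.28 ± 20.6 in cPLA_2_ KO DCs (SD, n = 3). It fell by 1.70 ± 0.18 on average (limma adjusted p = 4.59e-08), and its confinement change differed between genotypes by 1.34 ± 0.36 (0.00836). *Srgn*, the serglycin core protein that packs granule proteases but is also made by other leukocytes, rose by 1.40 ± 0.03 with confinement (limma adjusted p = 4.96e-19) and by 1.80 ± 0.03 with LPS (1.06e-21). *Plac8* averaged 2117 ± 115 and 4341 ± 118 normalized counts in nonconfined and confined cPLA_2_ WT DCs and 2097 ± 89.2 and 874.3 ± 26.7 in cPLA_2_ KO DCs, a genotype difference in the confinement change of -2.30 ± 0.17 (limma adjusted p = 8.3e-10). The glutathione transferase gene *Gstm1* rose by 1.42 ± 0.11 with confinement in cPLA_2_ KO DCs (limma adjusted p = 9.99e-10). It averaged 3246 and 8724 normalized counts in nonconfined and confined cPLA_2_ KO DCs and 2145 and 4679 in cPLA_2_ WT DCs. The lysosomal β-glucuronidase gene *Gusb* fell by 1.14 ± 0.03 with LPS (limma adjusted p = 4.02e-19). The genotype difference of the confinement change was called higher for 1 and lower for 4 of the 20, against 1.11% and 6.56% of all genes.

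Among 24 tested regulators and receptors of myeloid progenitors, 1 was called higher and 6 lower with confinement, against 9.53% and 6.25% of all genes, with a median of -0.36. With LPS these were 3 and 6, against 15.6% and 13.4%, with a median of -0.31. *Cebpb*, which encodes a C/EBP factor of inflammatory and emergency myelopoiesis, rose by 1.81 ± 0.06 with confinement (limma adjusted p = 1.24e-16) and averaged 8218 ± 628 and 36700 ± 1880 normalized counts in nonconfined and confined cPLA_2_ WT DCs. The immediate early factor gene *Egr1* fell by 2.35 ± 0.07 (limma adjusted p = 3.83e-17), from 3744 ± 244 to 896.4 ± 84.6 in cPLA_2_ WT DCs. *Irf8*, which encodes a factor that directs progenitors to monocytes and DCs and away from neutrophils, rose by 2.16 ± 0.03 with LPS (limma adjusted p = 2.46e-23) and was lower in confined than in LPS-treated DCs by -2.18 ± 0.03 (5.48e-23). *Sox4* fell by 2.62 ± 0.08 with LPS (limma adjusted p = 4.28e-18). *Klf4*, a monocyte factor gene, was higher in confined than in LPS-treated DCs by 1.92 ± 0.07 (limma adjusted p = 4.38e-16). *Etv6* was lower in confined cPLA_2_ KO than cPLA_2_ WT DCs by -1.22 ± 0.07 (limma adjusted p = 1.22e-11). *Hoxa9* was too low to test, with a mean of 3.23 normalized counts.

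Of the 19 genes of later neutrophil stages, 1 was called higher and 0 lower by limma with confinement on average, against 9.53% and 6.25% of all genes, although 11 were lower at the adjusted p alone, against 31%, with a median of -0.27. In cPLA_2_ WT DCs 3 were called higher and 4 lower, against 11.4% and 7.62% of all genes, and in cPLA_2_ KO DCs limma called 0 in either direction, against 6.43% and 5.53%, with 4 higher and 6 lower at the adjusted p alone, against 22.8% and 23.4%. Averaged over nonconfined and confined DCs, 6 were called higher in cPLA_2_ KO and 0 lower, against 1.5% and 2.94% of all genes, with 15 higher and 2 lower at the adjusted p alone, against 14.7% and 18%, and a median of 0.72. *Mmp9*, the gelatinase of tertiary granules, averaged 912.9 ± 26.5 in nonconfined cPLA_2_ WT and 3738 ± 142 in nonconfined cPLA_2_ KO DCs and rose by 2.31 ± 0.18 over both conditions (limma adjusted p = 1.71e-09). *Ly6g*, the neutrophil surface marker, fell by 1.31 ± 0.19 with confinement in cPLA_2_ WT DCs (limma adjusted p = 4.49e-06). *Fpr1*, the formyl peptide receptor gene, rose by 2.39 ± 0.19 with confinement in cPLA_2_ WT DCs (limma adjusted p = 4.72e-10) and by 1.46 ± 0.13 on average (4.13e-09). With LPS *Fpr1* rose by 4.06 ± 0.13 (limma adjusted p = 3.72e-17). *Mmp25* differed between genotypes in its confinement change by -2.08 ± 0.09 (limma adjusted p = 1.15e-13). The summed normalized counts of the list lay between 217900 and 230500 in confined cPLA_2_ WT libraries, between 291300 and 296000 in nonconfined cPLA_2_ WT libraries, between 407000 and 419200 in confined cPLA_2_ KO libraries and between 410100 and 451500 in nonconfined cPLA_2_ KO libraries, with *S100a9* the most abundant gene.

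Many markers of other granulocytes were also lower after confinement. Of 9 eosinophil genes, all present in the libraries, 6 were called lower and 0 higher with confinement, against 6.25% and 9.53% of all genes. At the adjusted p alone 8 were lower and 0 higher, against 31% and 30.7%, and the median was -2.02. In cPLA_2_ WT DCs alone 7 were called lower and 1 higher, against 7.62% and 11.4% of all genes. *Ccr3* averaged 85.42 and 189.7 normalized counts in nonconfined and confined cPLA_2_ WT DCs and 229 and 61.27 in cPLA_2_ KO DCs. Their summed normalized counts were 33770 to 33940 in nonconfined and 9318 to 9940 in confined cPLA_2_ WT libraries, and 77520 to 83490 and 24840 to 25770 in cPLA_2_ KO libraries. *Prg2*, the eosinophil major basic protein gene, was the most abundant, at means of 17280 and 3960 in cPLA_2_ WT DCs and 39760 and 10500 in cPLA_2_ KO DCs. *Prg2* fell in each genotype, with log2 fold changes of -2.13 ± 0.14 and -1.92 ± 0.14 (limma adjusted p = 3.07e-11 and 3.95e-10). Averaged over nonconfined and confined DCs, 7 of the 9 genes were called higher in cPLA_2_ KO DCs and 0 lower. The shares of all genes were 1.5% and 2.94%, and the median of the list was 1.3. In the LPS libraries the eosinophil sum was 48040, 27900 and 38560 in replicates 1, 2 and 3 labelled WT and 27890, 48270 and 39140 in those labelled KO. It was thus lowest in the pair of LPS libraries without *Ddx3y*, which held the highest *Elane*, *Prtn3*, *Ctsg*, *Mpo*, *Ms4a3* and *Fcnb* counts.

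Of 11 mast cell and basophil genes, 8 were tested, and 6 were called lower and 1 higher with confinement, against 6.25% and 9.53% of all genes, with a median of -1.38. *Tpsab1* and *Mrgprb2* were at 0 in every library and *Mcpt4* did not exceed 1.52. *Mcpt8* averaged 1744 ± 61.7 and 559.5 ± 38.9 in nonconfined and confined cPLA_2_ WT DCs and 2926 ± 207 and 1377 ± 31.4 in cPLA_2_ KO DCs. The gene called higher, and the most abundant over all libraries, was *Hdc*, the histamine-forming decarboxylase, at means of 735.5 and 12370 in nonconfined and confined cPLA_2_ WT DCs and 1040 and 1458 in cPLA_2_ KO DCs. The list summed to 9179 to 9360 normalized counts in nonconfined and 14840 to 15530 in confined cPLA_2_ WT libraries, 13610 to 14280 and 6911 to 7160 in cPLA_2_ KO libraries and 17920 to 20690 in LPS libraries. Averaged over nonconfined and confined DCs, 1 tested gene of this list was called higher in cPLA_2_ KO DCs and 1 lower, against 1.5% and 2.94% of all genes. At the adjusted p alone 6 were higher and 1 lower, against 14.7% and 18%, with a median of 0.78. The part of eosinophils, mast cells or basophils in the results for the 8 genes was not tested.

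Of 14 macrophage and monocyte genes, 2 were called higher and 1 lower with confinement (median -0.31), against 9.53% and 6.25% of all genes, with *Cd14* the most abundant over all libraries, at means of 1899 and 131500 normalized counts in nonconfined and confined cPLA_2_ WT DCs and 1983 and 16430 in cPLA_2_ KO DCs. Of 12 DC genes, 0 were called higher by limma and 6 lower (median -0.79), against 9.53% and 6.25% of all genes. At the adjusted p alone 1 was higher and 11 were lower, against 30.7% and 31%. *Cd74* was the most abundant, at means of 240500 and 208700 normalized counts in nonconfined and confined cPLA_2_ WT DCs and 274200 and 198200 in cPLA_2_ KO DCs. Cell division genes, of which 20 were tested, had a median of -0.65 with confinement and -1.12 with LPS, and 1 and 12 were called lower, against 6.25% and 13.4% of all genes. At the adjusted p alone 19 were lower in each comparison, against 31% and 34.3%. Their summed counts lay between 87390 and 88860 in nonconfined and between 52660 and 53060 in confined cPLA_2_ WT libraries, and between 70020 and 71580 in nonconfined and between 52280 and 52630 in confined cPLA_2_ KO libraries. Of 8 tested lymphocyte genes, 4 were called lower with confinement, against 6.25% of all genes, and 0 higher by limma, against 9.53%, with 1 higher at the adjusted p alone, against 30.7%. Most of the lymphocyte sum was *Cd3g*, at a mean of 2306 normalized counts in nonconfined cPLA_2_ WT DCs. *Lck* averaged 56.61 there, and the remaining lymphocyte genes were low, at means of 22.65 (*Cd3e*) or less. The part of any of these cells in the results for the 8 genes was not tested.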

How the data were processed

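Poly(A) RNA of 18 samples was sequenced after stranded library preparation. Per the labels, the authors aligned reads with STAR 2.7.5a to mm39 and counted them with featureCounts 1.5.0. The deposited signal is the read count of each gene divided by the DESeq2 size factor of its library. Of these values, 100% came out as whole reads within a relative tolerance of 1e-06. Genes that reached 10 normalized counts in 3 or more of the 18 libraries were tested with limma 3.58.1 (R 4.3.3) on log2(normalized count + 1), with 1 mean per condition, empirical Bayes with a trend and Benjamini-Hochberg adjustment over 17875 genes. On simulated counts with a log2 change of 2 in 200 of 16881 genes, the fit recovered 198 and made 2 false calls. Smaller changes and the wider spread of the LPS libraries were not simulated. A call needed an adjusted p under 0.05 and a log2 change above 1. The members and gene lists were chosen with earlier results of these data known. Confinement within a genotype, genotype in nonconfined or confined DCs alone and the interaction were not tested for the 8 genes, and for *Elane* and *Ms4a3* those that include confined DCs are description. From the lists, the called gene with the largest rise and fall among those with a mean of at least 100 was named, with the most abundant marker of other cells. Alternatives were edgeR 4.0.16 and DESeq2 1.42.0 on recovered reads, other scalings, filters and pseudocounts, a replicate block and leaving out libraries. Exon lengths and promoters came from GENCODE vM39 on GRCm39.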

Additional observations from a re-analysis of the deposited data

Results flagged for a closer look

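In *Fcnb* every confined cPLA_2_ WT library lay below, and every confined cPLA_2_ KO library above, the nonconfined libraries of its genotype. The log2 fold changes differed by 1.26, a difference that was not tested. Among the 20 tested genes listed as linked to primary granules, not all of them particular to granules, the interaction term of the limma fit was called higher for 1 and lower for 4. The shares of all genes were 1.11% and 6.56%. These genes were *Prss57* (1.34), *Ctsc* (-1.26), *Srgn* (-1.28), *Slpi* (-1.88) and *Plac8* (-2.3), where negative values mean a lower confinement change in cPLA_2_ KO DCs.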

How the results depend on the processing

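The comparisons are named in this order: LPS, confinement, confined against LPS and cPLA_2_ KO against cPLA_2_ WT, each averaged, then the LPS labels, confinement in cPLA_2_ WT DCs, then in cPLA_2_ KO DCs, genotype in nonconfined and in confined DCs, and the interaction. The limma fit called 5188, 2822, 3478, 795, 0, 3400, 2139, 206, 1805 and 1371 genes. With a filter of 100 normalized counts these were 3148, 1354, 1819 and 422 in the first 4, and 1999, 1087, 96 and 1061 in the confinement and genotype comparisons. With the adjusted p alone they were 12774, 11026, 11421 and 5844, then 10113, 8271, 1588, 7038 and 4619 from confinement in cPLA_2_ WT DCs on. With a fold change of 1.5 and the unadjusted p they were 8238, 5325, 6162, 1971, 316, 6167, 4227, 1000, 3475 and 2956. The LPS labels gave 1 gene without a filter, 0 to 1 when leaving out a library, and 3 and 3 without the LPS libraries lacking or having *Ddx3y*, alternatives chosen after seeing the data, of which the second compares 1 library per label with the spread of the other conditions. Genotype in nonconfined DCs gave 125 to 238 genes when leaving out a library.

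Counts for LPS are over the 8 members. Those for comparisons with confined DCs are over 6, without *Elane* and *Ms4a3*, whose values there are description only. LPS called 1, against 4 with the same total per library, 2 with TMM, 2 with edgeR and 7 with the adjusted p alone. It called 3 with a fold change of 1.5 and the unadjusted p, 1 to 2 leaving out a library and 2 without the LPS libraries lacking *Ddx3y*. Confinement called 3, against 6 with the adjusted p alone. With a fold change of 1.5 and the unadjusted p, *Cebpe*, 1.69-fold lower, also passed. Confined against LPS called 2, against 1 with the same total, 6 with the adjusted p alone and 1 without the LPS libraries lacking *Ddx3y*. At the fold change of 1.5, *Ctsg* and *Prtn3*, 1.95-fold and 1.6-fold lower, also passed. Genotype called 0, against 1 with a pseudocount of 0.5, 1 with the same total, 6 with the adjusted p alone and 0 to 1 leaving out a library. At the fold change of 1.5, *Mpo* and *Ctsg*, 2-fold and 1.77-fold higher, passed. No direction of a tested member result turned and stayed past the test. Scaling to the same total moved the median of all genes to -0.47, -0.11 and 0.37 in the first 3 comparisons, and to -0.23, 0.19 and 0.24 for confinement in cPLA_2_ WT DCs, genotype in confined DCs and the interaction. The share of called genes that were higher went from 53.8% to 27.5%, 60.4% to 49.4% and 45.8% to 70.5%, and from 59.9% to 42.7%, 27.6% to 41.6% and 14.4% to 33.8%. The cause was not tested.

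With a replicate block limma called 5195 genes for LPS, 2810 for confinement and 186 for genotype in nonconfined DCs, and member counts did not change. Libraries of the same replicate number had residual correlations of -0.14 to 0.34 over 45 pairs, 6 of them over 0.1, all between replicates 1 or 2 of nonconfined cPLA_2_ WT, confined cPLA_2_ WT and confined cPLA_2_ KO DCs. Own-number libraries were the closest on average for 9 of 18, all of them nonconfined or confined and none of the LPS libraries. The libraries were not paired in the test.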
